A study of Homo sapiens with 4 samples.

Results

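Semaphorins are guidance proteins first studied in growing axons, and neuropilins and plexins are their receptors. The genes described here are 10 of the 34675 in the authors' deposited table, taken by symbol: the secreted class 3 semaphorins SEMA3A, SEMA3C, SEMA3E and SEMA3F, the membrane-bound SEMA4C, SEMA6A and SEMA7A, and the receptors NRP1, NRP2 and PLXND1. They were picked with results of the same comparison known, so their values are a description and support nothing by themselves.

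One line was labelled MDA-MB-231, a mesenchymal-like triple-negative breast carcinoma line, stably carrying a pcDNA plasmid with FLAG-tagged wildtype LKB1, the kinase encoded by STK11. It was set against a stable line, also labelled MDA-MB-231, with the pcDNA vector alone. Each line gave 2 libraries of total RNA from cells on plastic dishes in DMEM with serum, and the labels say neither whether the 2 were separate cultures nor whether a line is 1 clone, so the p-values go by the spread of these libraries alone, and that spread may be technical. The table holds 1 comparison over the 4 libraries and no value per library. Its header names no direction, which was taken as LKB1 over vector since STK11 itself was higher (2112 reads in the LKB1 line, 1321 in the vector line).

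Every fold, log2 fold and adjusted p of a single gene below is that of the authors' deposited table, also where a sentence does not repeat it. Reads given below add up both libraries of each line and were recovered from the deposited folds, and the LKB1 line was 1.04 times as deep as the vector line. Titles of the LKB1 libraries carry the term fmRNA and those of the vector libraries mRNA, and 1 LKB1 library has a run tag of its own; preparation and plasmid cannot be told apart. A look for swapped or mixed samples found that 1 of the 2 groups did not match MDA-MB-231, which touches every value below. That look counted reads of genes that this line should lack, and the markers given next were no part of it. Of 5 markers high in this line VIM, CD44 and AXL had more reads than could be resolved, and LDHB had 4184 in the LKB1 line and 4756 in the vector line. AXL was called higher in the LKB1 line (log2 0.42, adjusted p = 0.0387) and PLAUR lower, with 814 reads in the LKB1 line and 1143 in the vector line (log2 -0.55, adjusted p = 0.0143). The receptor genes ESR1 and PGR were near 0, with 12 and 0 reads in the LKB1 line against 8 and 4 in the vector line. CDH1, EPCAM and GATA3, also listed as near 0 in this line, had 278, 209 and 290 reads in the LKB1 line and 431, 152 and 259 in the vector line. At the threshold given below, 2.55% of all 34675 genes were called higher and 3.24% lower. Over the genes with at least 40 reads the shares were 5.77% and 6.86%. Of 9 endothelial markers measured 6 were called lower in the LKB1 line and none was called higher. Their summed reads were 886 in the LKB1 line and 2589 in the vector line, and none of the 9 was at 0. EGFL7 had more reads in the LKB1 line (336 against 225, not called). Of 6 neural markers UCHL1 and TUBB3 were called lower, UCHL1 with 8 reads in the LKB1 line and 316 in the vector line. Of 6 fibroblast markers COL3A1 and COL1A1 were called lower, and of 4 leukocyte markers LCP1 was called lower and CD14 higher. The summed reads were 914 in the LKB1 line and 1470 in the vector line for the neural list, 419 and 454 for the fibroblast list and 1746 and 2357 for the leukocyte list. Several of the sums lean on single genes. ESAM alone had 129 endothelial reads in the LKB1 line and 1197 in the vector line. TUBB3 had 800 and 1091 of the neural reads, and CD68, not called, 1400 and 1587 of the leukocyte reads. Endothelium is known to express neuropilins, plexin D1 and several class 3 semaphorins. The part of any of these cell types in the results below was not tested.

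As background, class 3 semaphorins are secreted and bind a neuropilin, which has little signalling of its own and works with a plexin A or plexin D1. SEMA3E is the exception that binds plexin D1 directly. Activated plexins act on small GTPases of the Ras family and on the cytoskeleton, which loosens integrin adhesion and makes growth cones and migrating cells retract. Neuropilins are also co-receptors of vascular endothelial growth factors, and in carcinoma cells the family is known for effects on migration and on the growth of vessels.

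Sequences just before the transcription start are shown for the gene that was higher (SEMA3C), for lower ones of the same class (SEMA3E, on the same chromosome, and SEMA3F) and for the member with a full cAMP response element (SEMA4C). They are 250 bases upstream of starts listed by RefSeq on GRCh38.p14, given 5′ to 3′ on the strand of the gene. RefSeq windows were at hand for 7 of the 10 genes and not for SEMA3A, SEMA6A and NRP1. Where RefSeq lists several starts they are numbered from the most upstream, and which start these cells used is not known from the table. SEMA3C-1 is chr7:80922390-80922639 (minus strand), SEMA3C-2 chr7:80919052-80919301 (minus), SEMA3E-1 chr7:83649140-83649389 (minus), SEMA3F-1 chr3:50154808-50155057 (plus) and SEMA4C chr2:96870081-96870330 (minus). Capitals mark GC boxes (GGGCGG), the core of the cAMP response element (TGACG) and E-boxes (CACGTG) on either strand.
SEMA3C-1: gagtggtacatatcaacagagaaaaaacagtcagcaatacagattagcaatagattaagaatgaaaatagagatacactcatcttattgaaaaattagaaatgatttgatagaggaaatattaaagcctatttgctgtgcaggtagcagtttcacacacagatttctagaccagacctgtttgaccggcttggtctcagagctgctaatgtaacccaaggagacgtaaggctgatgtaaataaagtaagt
SEMA3C-2: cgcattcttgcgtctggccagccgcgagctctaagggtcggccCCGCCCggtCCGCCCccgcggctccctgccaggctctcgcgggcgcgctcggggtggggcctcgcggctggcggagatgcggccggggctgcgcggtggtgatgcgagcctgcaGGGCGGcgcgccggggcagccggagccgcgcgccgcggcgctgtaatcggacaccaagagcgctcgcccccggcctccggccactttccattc
SEMA3E-1: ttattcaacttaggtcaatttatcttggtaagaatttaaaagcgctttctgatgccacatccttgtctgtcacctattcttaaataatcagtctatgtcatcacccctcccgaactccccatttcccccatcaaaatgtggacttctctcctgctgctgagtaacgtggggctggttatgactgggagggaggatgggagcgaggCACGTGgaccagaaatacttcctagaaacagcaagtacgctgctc
SEMA3F-1: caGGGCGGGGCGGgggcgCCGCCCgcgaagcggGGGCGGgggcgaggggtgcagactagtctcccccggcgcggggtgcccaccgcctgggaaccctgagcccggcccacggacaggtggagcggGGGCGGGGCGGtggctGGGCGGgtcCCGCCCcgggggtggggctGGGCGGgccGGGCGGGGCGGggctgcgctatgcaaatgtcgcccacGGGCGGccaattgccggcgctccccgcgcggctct
SEMA4C: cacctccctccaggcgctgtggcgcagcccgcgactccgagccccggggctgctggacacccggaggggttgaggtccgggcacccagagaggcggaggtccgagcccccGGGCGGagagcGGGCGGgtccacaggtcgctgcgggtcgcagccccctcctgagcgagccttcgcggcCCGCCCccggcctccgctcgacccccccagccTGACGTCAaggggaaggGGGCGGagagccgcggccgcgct

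The class 3 windows differ in composition. GC content was 36.4% upstream of SEMA3C-1 and 77.6% upstream of SEMA3C-2, 46.4% upstream of SEMA3E-1 and 82% upstream of SEMA3F-1, where the median of 35116 RefSeq windows was 58%. SEMA3F-1 held 12 GC boxes, SEMA3C-2 held 3, and SEMA3C-1 and SEMA3E-1 held 0, while 42.6% of all windows held at least 1. Other starts of the same genes differed: SEMA3F-2 held 2 GC boxes at a GC content of 80.4%, SEMA3F-3 held 0 at 52.8%, and SEMA3E-2 held 0 at 34.8% with 1 match to TATAAA, which 10.7% of all windows hold. The SEMA3E-1 window had 1 E-box, 45 bases before the start, as 6.34% of all windows do. The full element TGACGTCA, which is palindromic and so holds the core TGACG on both strands, stood 40 bases before the start of SEMA4C and in 1.65% of all windows. The other windows of the 7 genes, those of SEMA7A, NRP2 and PLXND1 included, held no TGACGTCA. None of their windows held an AP-1 site (TGANTCA), against 6.57% of all. These matches are letters in a window and say nothing of binding.

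Among the 10 genes 6 semaphorins were lower in the LKB1 line, SEMA3C was higher, and the 3 receptors did not pass the threshold. A gene was called at a deposited adjusted p under 0.05, and 5.79% of all 34675 genes were called, or 12.6% of the 14387 with at least 40 reads, a minimum that all 10 genes passed. Over all genes 2.55% were called higher and 3.24% lower, and over those with at least 40 reads 5.77% and 6.86%. Since the genes were picked on this comparison, nothing is read from their share. The median log2 fold of the 10 was -0.62, with 8 below 0, and that of all genes with at least 40 reads was -0.02.

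SEMA3A, the founding repellent of the family, which signals through NRP1 and A-type plexins, had 87 reads in the LKB1 line and 280 in the vector line. It was thus 3.34-fold lower (log2 -1.74, approximate SE 0.25, adjusted p = 3.43e-10 in the authors' deposited table). This SE is computed from counting and from the variation between libraries that returns the deposited p in an exact negative binomial test, 0.124 of the mean for SEMA3A; over the 10 genes that variation was 0.0937 to 0.205. The gene lies at chromosome 7, 83587659 to 84122040, minus strand, in hg19 (ENSG00000075213.5).

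SEMA3E, the ligand of plexin D1 in vessel patterning, had 38 reads in the LKB1 line and 96 in the vector line. The log2 fold was -1.39 (approximate SE 0.36, adjusted p = 0.00347 in the authors' deposited table), and the counting interval of the ratio was 0.254 to 0.560. It lies at chromosome 7, 82993222 to 83278326, minus strand (ENSG00000170381.8). SEMA3F, a ligand of NRP2 that is known to hold back vessels and tumour cells, had 191 reads in the LKB1 line and 367 in the vector line. Its log2 fold was -0.997 (approximate SE 0.20, adjusted p = 3.06e-05 in the authors' deposited table). SEMA3F is at chromosome 3, 50192478 to 50226508, plus strand (ENSG00000001617.7).

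SEMA3C stood against the other 3. This semaphorin, which binds both neuropilins and is known to promote migration of several carcinoma cells, had 1442 reads in the LKB1 line and 871 in the vector line. It was 1.59-fold higher (log2 0.67, approximate SE 0.16, adjusted p = 0.000673 in the authors' deposited table), with a counting interval of 1.46 to 1.73. SEMA3C lies at chromosome 7, 80371854 to 80551675, minus strand (ENSG00000075223.9). Its share of the reads of all 7 class 3 genes, SEMA3B included, was 57.1% in the LKB1 line (1442 of 2527 reads, exact Clopper-Pearson interval 55.1 to 59.0%) and 39.1% in the vector line (871 of 2230, 37.0 to 41.1%). Per kilobase of exon the shares were 55.6% in the LKB1 line and 38.8% in the vector line. These intervals cover counting error only and not the spread between libraries. SEMA3C and the lower genes of its class were picked on this comparison. The difference in share follows from their folds and is read no further.

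The membrane-bound semaphorins among the 10 genes were lower as well. SEMA6A, a transmembrane ligand of PLXNA2 and PLXNA4, had 5 reads in the LKB1 line and 37 in the vector line, a log2 fold of -2.88 that is the lowest of the 10. Its approximate SE was 0.75 and the counting interval of the ratio 0.0399 to 0.331, so the size is loosely known (adjusted p = 0.000513 in the authors' deposited table). An antisense gene within it, CTB-118N6.3, had 35 reads in the LKB1 line and 41 in the vector line. Whether counting used strand is not given in the sources used here, so reads of the 2 may not be separable. SEMA6A is at chromosome 5, 115779312 to 115910630, minus strand (ENSG00000092421.12).

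SEMA4C, a transmembrane ligand of PLXNB2, had 435 reads in the LKB1 line and 677 in the vector line. Its log2 fold was -0.69 (approximate SE 0.18, adjusted p = 0.00370 in the authors' deposited table). It lies at chromosome 2, 97525453 to 97536494, minus strand (ENSG00000168758.6). SEMA7A, the lipid-anchored member that binds PLXNC1 and the integrin chain ITGB1, had 583 reads in the LKB1 line and 815 in the vector line. At a log2 fold of -0.54 (approximate SE 0.16, adjusted p = 0.0150 as deposited by the authors) it was the smallest of the called differences. SEMA7A is at chromosome 15, 74701630 to 74726808, minus strand (ENSG00000138623.5).

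The receptors differed less. NRP1, the co-receptor of SEMA3A and of VEGFA, had 6119 reads in the LKB1 line and 4827 in the vector line, a log2 fold of 0.29 (approximate SE 0.14, adjusted p = 0.341 in the authors' deposited table). NRP2, which prefers SEMA3F and VEGFC, had 735 reads in the LKB1 line and 775 in the vector line (log2 -0.13, approximate SE 0.16, adjusted p = 1). PLXND1, the receptor of SEMA3E, had 1638 reads in the LKB1 line and 1708 in the vector line (log2 -0.12, approximate SE 0.16, adjusted p = 1). For PLXND1 2 pairs of totals match the fold and the smaller is given. These p-values do not show that the receptors were equal. They lie at chromosome 10, 33466420 to 33625190 (NRP1, minus strand, ENSG00000099250.11), chromosome 2, 206546714 to 206662857 (NRP2, plus strand, ENSG00000118257.12) and chromosome 3, 129274018 to 129325661 (PLXND1, minus strand, ENSG00000004399.8).

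**Figure D1:**
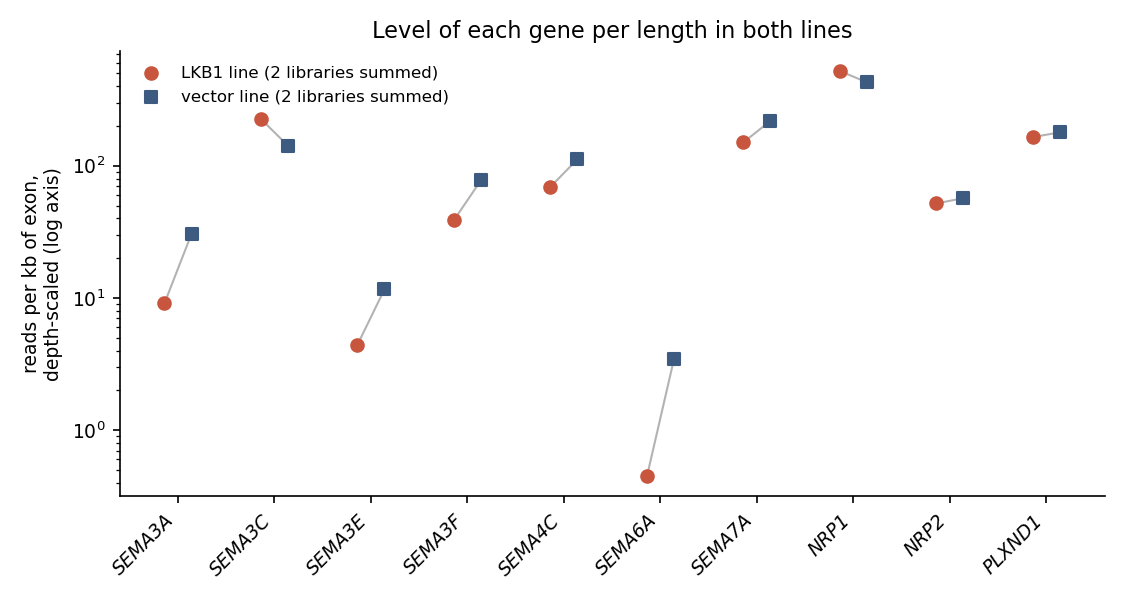
Reads per kilobase of exon, scaled for depth, on a log axis for each of the 10 genes, as the sum of 2 libraries a line (circles, LKB1 line; squares, vector line; no spread between libraries is known). NRP1 is highest in both lines and SEMA6A lowest, at 0.448 in the LKB1 line and 3.44 in the vector line.

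Levels between genes were compared per kilobase of the exons of GENCODE 29 and scaled for depth. NRP1 was the highest, with 521 reads per kilobase in the LKB1 line and 427 in the vector line. In the LKB1 line SEMA3C came next with 226, then PLXND1 with 165 and SEMA7A with 150. In the vector line the order of these 3 was the reverse, with SEMA7A at 219, PLXND1 at 179 and SEMA3C at 142. SEMA4C had 69.3 in the LKB1 line and 112 in the vector line. NRP2 had 51.9 and SEMA3F 38.8 in the LKB1 line, whereas in the vector line SEMA3F had 77.5 and NRP2 56.9. The repellent SEMA3A had 9.10 in the LKB1 line and 30.5 in the vector line, and SEMA3E had 4.42 in the LKB1 line and 11.6 in the vector line. As a mean of both lines SEMA7A (185), SEMA3C (184) and PLXND1 (172) lay within the variation between libraries of about 0.1 of the mean, as did SEMA3F (58.2) and NRP2 (54.4), so their order is not settled. Among the semaphorins picked here those with the lowest levels, SEMA6A, SEMA3E and SEMA3A, had the 3 largest log2 differences. With few reads only a large fold passes the threshold, and these genes were picked on this comparison. Nothing is therefore read from this order.

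The whole family was taken as a list by name: 20 semaphorins, 9 plexins and 2 neuropilins, all of them in the table and 28 with at least 40 reads. Of these 28, 7 were lower in the LKB1 line, 1 was higher and 20 did not pass, at a median log2 fold of -0.29. The called share was 28.6%, against 12.6% of all genes with at least 40 reads, and it includes the 7 called genes that were picked on this comparison. Of the 18 that are not among the 10 genes, 1 passed, PLXNA2, a share of 5.56%. Their median log2 fold was -0.17 with 10 of 18 below 0. This plexin, a receptor of SEMA6A that also works with NRP1 for SEMA3A, had 338 reads in the LKB1 line and 681 in the vector line (log2 -1.07, approximate SE 0.19, adjusted p = 1.36e-06 in the authors' deposited table). It lies at chromosome 1, 208195587 to 208417665, minus strand. SEMA6A and its receptor PLXNA2 were thus both lower in the LKB1 line, while PLXNA4, also a receptor of SEMA6A, did not pass (log2 -0.24).

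**Figure D2:**
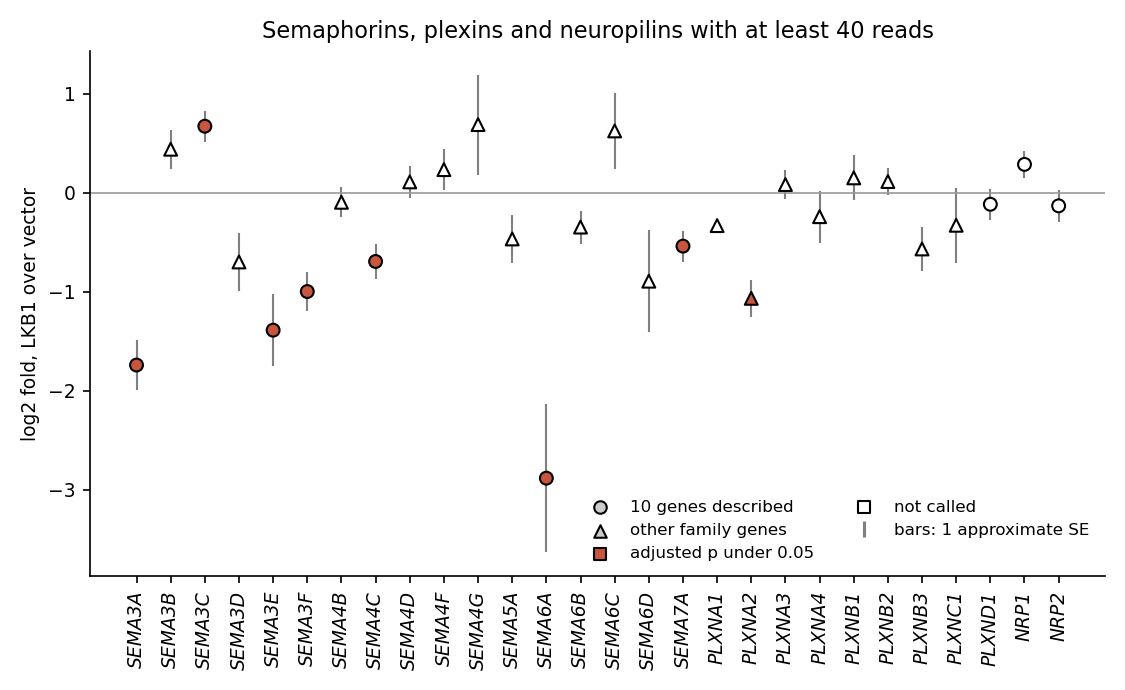
The log2 fold of LKB1 over vector for the 28 family genes with at least 40 reads (circles, the 10 genes described; triangles, the others; filled, adjusted p under 0.05; bars, 1 approximate SE, not drawn for PLXNA1, whose reads could not be resolved). SEMA3C is the 1 filled point above 0 and SEMA6A the lowest, at -2.88.

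Other class 3 semaphorins did not pass. SEMA3D, the neighbour of SEMA3A, had 71 reads in the LKB1 line and 111 in the vector line (log2 -0.70, adjusted p = 0.221). SEMA3B, a ligand known as a tumour suppressor candidate of lung, had 685 reads in the LKB1 line and 486 in the vector line (log2 0.44, adjusted p = 0.261). SEMA3G had 32 reads over both lines. In class 4 the log2 folds of SEMA4B, SEMA4D, SEMA4F and SEMA4G were -0.10, 0.11, 0.23 and 0.69. In the classes with transmembrane members SEMA5A was at -0.47, SEMA6B at -0.35, SEMA6C at 0.62 and SEMA6D at -0.89, the last with 15 reads in the LKB1 line and 27 in the vector line. SEMA4A and SEMA5B had 6 reads each over both lines.

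Among the plexins, the semaphorin receptors proper, PLXNB2, which binds SEMA4C, had 4916 reads in the LKB1 line and 4372 in the vector line (log2 0.11, adjusted p = 1). The A-type PLXNA1, PLXNA3 and PLXNA4 were at -0.33, 0.08 and -0.24. The class B receptors PLXNB1 and PLXNB3 were at 0.15 and -0.57, and PLXNC1, the receptor of SEMA7A, was at -0.33 with 43 reads in the LKB1 line and 52 in the vector line. The smallest adjusted p of these 7 plexins were 0.155 for PLXNB3 and 0.214 for PLXNA1. Whether the difference of the ligands differs from that of the receptors was not tested.

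**Figure D3:**
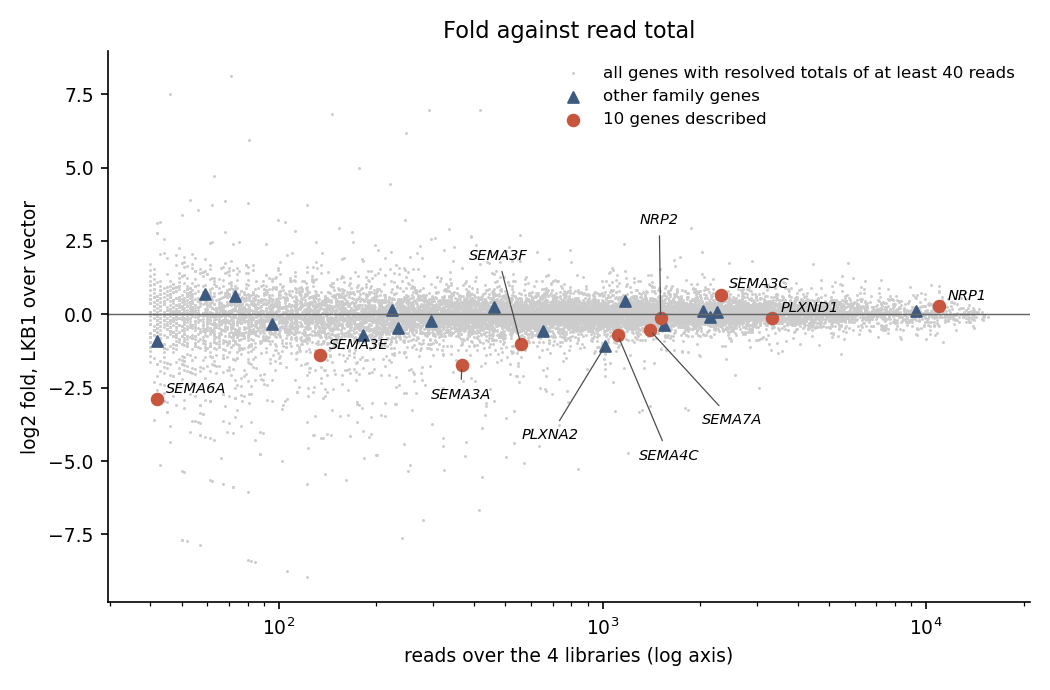
The log2 fold of LKB1 over vector against the reads over the 4 libraries (log axis) for all genes with resolved totals of at least 40 reads (grey), the 10 genes described (circles) and the other family genes (triangles). SEMA6A lies at the low end of reads, with 42, and NRP1 near the high end, with 10946.

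Position on the chromosome was examined because 3 of the genes lie in 1 stretch of chromosome 7. In hg19 SEMA3C, SEMA3E, SEMA3A and SEMA3D are the semaphorins of this stretch, in that order and in the same orientation, with log2 folds of 0.67, -1.39, -1.74 and -0.70. Between SEMA3C and SEMA3E lie, among the protein-coding genes with reads, AC005008.2, with 1 read in the LKB1 line and 0 in the vector line, CACNA2D1, a calcium channel subunit gene, with 333 reads in the LKB1 line and 263 in the vector line (log2 0.28, adjusted p = 0.728), and PCLO, a presynaptic scaffold gene, with 151 in the LKB1 line and 257 in the vector line (log2 -0.82, adjusted p = 0.0149). The sign of the fold thus changes within the stretch. The 20 nearest protein-coding genes with at least 200 reads around SEMA3A had a median of 0.13, from -0.995 to 0.67. Around SEMA3C their median was 0.12 and around SEMA3E 0.13.

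Elsewhere each called gene also lay outside the quartiles of its 20 neighbours, which do not bound their range. The neighbours of SEMA7A, for 1, reached -3.76. The called genes were picked for a difference in this comparison, so a place outside the quartiles follows from the pick and is read no further. The median of the 20 nearest genes was -0.08 around SEMA3F, -0.06 around SEMA4C, 0.14 around SEMA6A and -0.02 around SEMA7A. SEMA3F and SEMA3B lie near each other on chromosome 3, at log2 folds of -0.997 and 0.44. For the receptors the medians of the neighbours were -0.02 around NRP1, 0.02 around NRP2 and 0.02 around PLXND1.

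**Figure D4:**
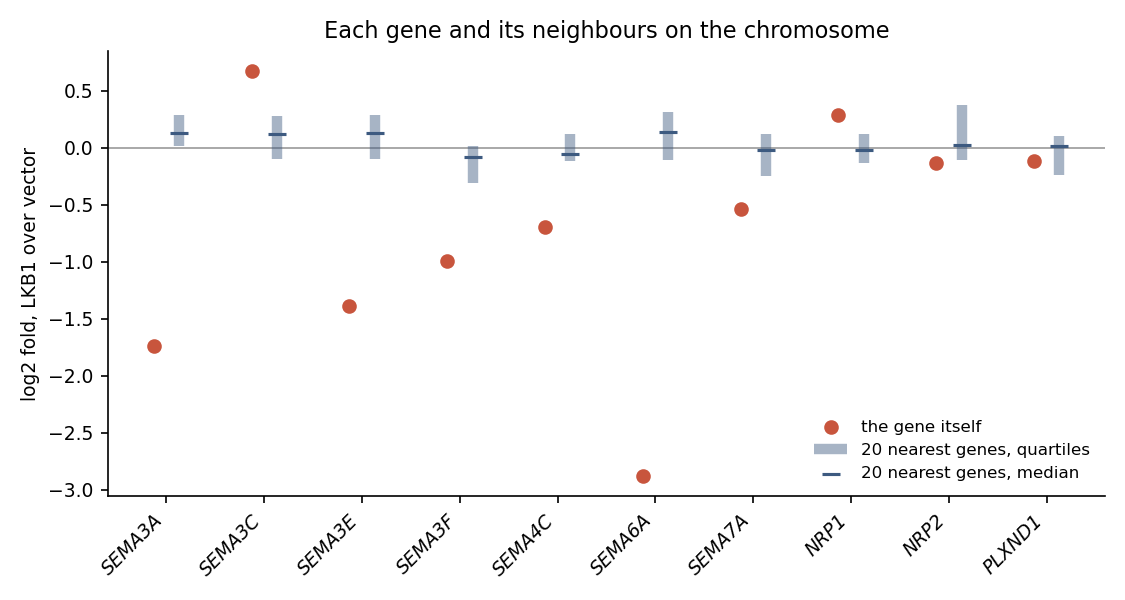
The log2 fold of LKB1 over vector of each of the 10 genes (circles) beside the median (dash) and quartiles (bar) of its 20 nearest protein-coding genes with at least 200 reads. The medians of the neighbours lie between -0.08 and 0.14, whereas SEMA3A lies at -1.74 and SEMA6A at -2.88.

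Co-receptors, effectors and processing enzymes of the pathway were a further list of 53 symbols, 51 of them in the table and 38 with at least 40 reads. Of the 38, 10 fell in the LKB1 line, 7 rose and 21 did not pass. The called share was 44.7%, against 12.6% of all genes with at least 40 reads, of which 5.77% were higher and 6.86% lower. This list too was chosen with earlier results of these data known, so nothing is read from its share. The median log2 fold of the 38 was -0.02, as was that of all genes with at least 40 reads. The convertase FURIN, which cleaves class 3 semaphorins and so changes their activity, rose, with 2621 reads in the LKB1 line and 1432 in the vector line (log2 0.82, adjusted p = 1.48e-06 in the authors' deposited table). PCSK5, another convertase, fell, with 4 reads in the LKB1 line and 80 in the vector line (log2 -4.29, adjusted p = 6.91e-13). ADAMTS1, a protease for which SEMA3C is a reported substrate, had 112 reads in the LKB1 line and 661 in the vector line and fell.

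Adhesion molecules that associate with neuropilins went both ways. L1CAM, which forms a complex with NRP1 in SEMA3A signalling, rose, with 3302 reads in the LKB1 line and 1413 in the vector line. NRCAM, its relative that associates with NRP2, fell (13 reads in the LKB1 line, 60 in the vector line, log2 -2.24, adjusted p = 7.71e-05 in the authors' deposited table). PTK7, a pseudokinase known from frog embryos to associate with a plexin, fell, with 469 reads in the LKB1 line and 2569 in the vector line (log2 -2.51, adjusted p = 3.85e-53). KDR, the VEGF receptor that pairs with NRP1 and is itself an endothelial gene, fell (73 reads in the LKB1 line, 170 in the vector line, log2 -1.27, adjusted p = 0.000618).

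Inside the cell, GIPC1, an adaptor that binds the tails of NRP1 and PLXND1, fell, with 2066 reads in the LKB1 line and 3093 in the vector line (log2 -0.64, adjusted p = 0.000321 in the authors' deposited table). DPYSL3, a member of the collapsin response mediators that pass semaphorin signals to microtubules, fell (11 reads in the LKB1 line, 70 in the vector line, log2 -2.70, adjusted p = 7.71e-09). MICAL2, of the family of oxidising enzymes that take actin filaments apart downstream of plexins, rose (log2 0.78, adjusted p = 7.07e-07), and so did the GTPase MRAS (291 reads in the LKB1 line, 153 in the vector line, log2 0.87, adjusted p = 0.000672). PLXDC2, a plexin-domain protein that is not a plexin, fell (7 reads in the LKB1 line, 46 in the vector line, log2 -2.73). The other 5 called genes were between -0.57 and 0.78.

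Of those, VEGFB and VEGFC, growth factors that bind neuropilins, are named here after their values were seen. VEGFB rose (1201 reads in the LKB1 line, 739 in the vector line, log2 0.64, adjusted p = 0.00240 in the authors' deposited table) and VEGFC fell (417 reads in the LKB1 line, 595 in the vector line, log2 -0.57, adjusted p = 0.0234). VEGFA, the main ligand that NRP1 shares with KDR, had 1211 reads in the LKB1 line and 984 in the vector line (log2 0.24, adjusted p = 0.664). The integrin chain ITGB1, a receptor of SEMA7A, was at -0.08 (adjusted p = 1).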

How the data were processed

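RNA of 2 libraries from the LKB1 line and 2 from the vector line was compared in 1 table. Tools listed in the submitters' processing notes, with no role, are edgeR 2.6.0, TopHat2 2.0.6 and CASAVA 1.8.2, and the build is hg19. How reads were counted, with strand or not, and which filters applied is not given in the sources used here. Each gene has, per the file headers, a fold change or ratio deposited by the authors together with its log2 value. It also has a deposited p-value and one adjusted for all 34675 genes, which a Benjamini-Hochberg adjustment matched to within 1.89e-06. No adjusted p in the text was recomputed unless an alternative is named.

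Folds with a prior count in each group, summing to 0.5, take only certain values, and whole read totals of up to 8000 per line (tolerance 8e-10 on the log2 scale) were found for 28014 of the 28242 genes with reads (99.19%). Where several pairs fitted the smallest was used. Recovery and the exact negative binomial test were tested on simulated data made with the same prior count and depth ratio. Such data cannot show whether that form lies behind the deposited folds. Exon lengths came from GENCODE 29 by Ensembl identifier, and promoters from RefSeq. Python 3.11.15, scipy 1.17.1 and statsmodels 0.14.6 were used.

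The 10 genes and all lists were chosen with earlier results of these data known. Named were the 10 genes, the rest of the family, STK11 and up to 12 called pathway genes with the smallest p. Similarity of pattern is not given since there is 1 comparison. Alternatives were another read filter, assumed variations, recentring, thresholds and no prior count.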

Additional observations from a re-analysis of the deposited data

How the results depend on the processing

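With a variation between libraries of 0.2 of the mean assumed for every gene, 3 of the 10 genes passed (SEMA3A, SEMA3E and SEMA6A, all lower; 3.3% of 28014 genes passed) against 7 in the authors' deposited table. The log2 folds of 0.67 for SEMA3C, -0.997 for SEMA3F, -0.69 for SEMA4C and -0.54 for SEMA7A then missed the threshold, at adjusted p of 0.355, 0.0534, 0.344 and 0.667. The alternative's own construction, a larger assumed variation than the deposited p-values imply for these genes, accounts for this. Asking for a fold of at least 2 left the same 3 genes. Of the 25 family and pathway genes called at the deposited threshold, 8 belonged to the family. Under each of these 2 settings 12 of the 25 passed, and those of the family were SEMA3A, SEMA3E, SEMA6A and PLXNA2. An adjusted p under 0.01 gave 6 of the 10 genes. A filter of 40 reads gave 7 (15.4% of 14387 genes passed), and a variation of 0.1 gave 7 (8.9% of 28014 genes passed). The share over all genes is not given for a threshold of 0.01 or a fold of at least 2. Since the 10 genes were picked on this comparison, nothing is read from these counts. A variation of 0.1 is close to what the deposited p-values imply for most of the 10, so it nearly repeats the deposited test. Recentring by 0.01 kept the deposited calls, so its count of 7 was fixed beforehand. No direction reversed among the 10 in any setting run. Those settings left the log2 folds as deposited or moved them slightly, so a reversal was not possible. Leaving out a library was not run, since the table has no values per library, and no result could be recomputed without the group that did not match its line. No paired analysis was possible because the columns carry no replicate. Depth limits SEMA6A most, with 5 reads in the LKB1 line.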
